A study of Mus musculus with 6 samples.

Results

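Mitochondrial ribosomal protein genes encode the proteins of the mitoribosome, and they were followed here in the mouse paraventricular nucleus of the hypothalamus after a single electroconvulsive seizure. A member was any gene whose symbol starts with Mrpl (large subunit) or Mrps (small subunit) followed by a digit, taken from probe sets that name exactly 1 gene. Where several probe sets named a gene, the brightest on average over the 6 arrays was used, giving 74 genes of the 12393 genes that the array names this way. Of these 74, 73 passed the filter on low signals, and Mrpl14 alone did not. The members were split by subunit and by the number in the symbol, with a few set exceptions. This gave 27 bacterial-type and 22 mitochondria-specific large-subunit genes, and 15 bacterial-type and 10 mitochondria-specific small-subunit genes. The number is only a rough guide to ancestry. By it Mrpl47 and Mrpl55 count as mitochondria-specific, although their proteins have bacterial counterparts. Mrps30 and Mrps18a are counted with the large subunit, where their proteins sit despite their names.

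The paraventricular nucleus is a small nucleus of the hypothalamus that holds oxytocin, vasopressin and releasing-hormone neurons. It was cut from 7 µm brain sections of C57Bl/6 mice by laser microdissection, and RNA was pooled from 2 to 3 animals for each array. Seizure animals received 1 shock (25 mA for 1 s, 100 pulses per s, pulse width 0.5 ms) through ear clips under isoflurane, and their tissue was taken 2 h or 6 h later. Sham animals were anaesthetised and handled alike without current and were taken at 2 h, so the 6 h pools were compared with shams of another time after handling. Each of the 3 groups had 2 arrays from different animals, hybridised from 2 ng of amplified total RNA. Age and sex of the animals are not among the labels used here. With bulk tissue, fewer cells of a type and less RNA per cell cannot be told apart.

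Mitochondrial ribosomes translate the few messenger RNAs of the mitochondrial genome, all of which code for subunits of the oxidative phosphorylation complexes. Their RNAs come from the mitochondrial genome, whereas every one of their proteins is encoded in the nucleus, made in the cytosol and imported. Some of these proteins descend from bacterial ribosomal proteins, and others were gained in the mitochondrial lineage. Promoters of nuclear genes for mitochondrial proteins are known for binding sites of NRF1, of the ETS factor GABPA (also called NRF2) and of YY1. Neurons depend heavily on oxidative phosphorylation for firing and synaptic transmission.

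The start-site sequences of the members are shown first, because the members share promoter features that the choice by name did not use. RefSeq's promoter table (GRCm38.p6; 250 bases before to 50 bases after each start) held 65 of the 74 members. The 6 stretches printed here were picked to show each motif and a shared promoter, each ending at the base before the member's start, 5′ to 3′ on the gene's strand. Capitals mark the searched letters on either strand: CATGCGC for the NRF1 core, CCGGAAG for GABPA and AAGATGGC for YY1.
Mrpl32 (chr13:14613038-14613187, - strand): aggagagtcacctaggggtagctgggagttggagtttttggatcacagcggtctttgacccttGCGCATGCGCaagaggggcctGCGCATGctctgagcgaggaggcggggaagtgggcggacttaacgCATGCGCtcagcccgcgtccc
Mrpl17 (chr7:105811088-105811237, - strand): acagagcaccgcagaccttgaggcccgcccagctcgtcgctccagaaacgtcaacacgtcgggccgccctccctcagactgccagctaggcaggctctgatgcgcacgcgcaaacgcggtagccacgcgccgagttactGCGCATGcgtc
Mrpl22 (chr11:58171514-58171663, + strand): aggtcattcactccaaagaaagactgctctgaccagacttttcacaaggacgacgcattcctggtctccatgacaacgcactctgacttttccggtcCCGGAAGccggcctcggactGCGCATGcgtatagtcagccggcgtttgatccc
Mrpl43 (chr19:45006443-45006557, - strand): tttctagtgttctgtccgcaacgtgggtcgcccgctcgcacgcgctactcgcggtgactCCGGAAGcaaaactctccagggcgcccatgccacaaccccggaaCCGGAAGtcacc
Mrpl36 (chr13:73330859-73331008, + strand): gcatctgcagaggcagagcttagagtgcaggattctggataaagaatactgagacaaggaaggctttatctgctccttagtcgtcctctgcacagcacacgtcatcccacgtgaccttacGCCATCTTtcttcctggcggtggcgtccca
Mrps11 (chr7:78783090-78783130, + strand): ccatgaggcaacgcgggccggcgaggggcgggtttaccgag
Mrpl32 carried 2 NRF1 cores overlapping in the full palindrome GCGCATGCGC and 2 more cores alone, Mrpl17 carried 1 core close to its start, and Mrpl22 carried a GABPA site and an NRF1 core downstream of it. Mrpl43 held 2 GABPA sites, and Mrpl36 held a YY1 site read from the other strand. The Mrps11 stretch is the whole interval between Mrps11 and Mrpl46, which start 42 bases apart on opposite strands, and it held none of the 3 motifs. Beyond the printed stretches, Mrps11 had a YY1 site 107 bases upstream of its start, and Mrpl32 and Mrpl17 had further sites.

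Counted over the 300 bases, the GABPA motif was found in 24 of the 65 members (36.9%), against 16.4% of the 9883 genes of the array with an entry. The YY1 motif was found in 11 members (16.9%, against 4.39%), the NRF1 core in 8 (12.3%, against 6.73%) and the full NRF1 palindrome in 3 (4.62%, against 1.82%), the latter being Mrpl9, Mrpl32 and Mrpl39. At least 1 of the GABPA, YY1 and NRF1 core motifs was present in 36 members (55.4%, against 24.7%). The TATA motif TATAAA was present in 5 members (7.69%, against 11.9%). A CpG observed to expected ratio of 0.6 or above, as in CpG islands, was found in 60 members (92.3%, against 61.3%), although the median GC content was 58% in the members and 59.3% in the genes of the array. Another gene started on the opposite strand within 1000 bases upstream of 24 members (36.9%, against 16.6%). These shares describe letters in a window and were not tested, and a match is not evidence of binding.

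**Figure D1:**
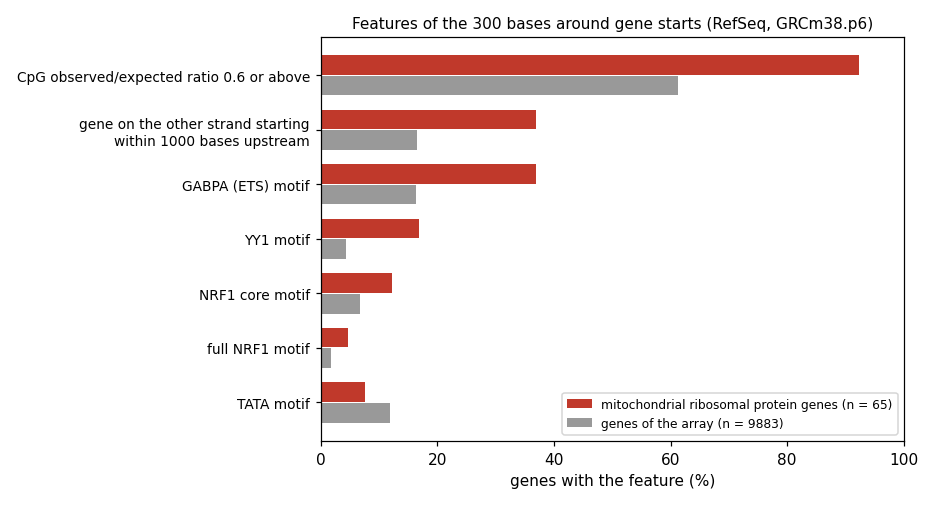
Share of genes (%, horizontal axis from 0 to 100) whose 300 bases around the start hold each feature, for the 65 mitochondrial ribosomal protein genes with a RefSeq entry and the 9883 genes of the array with one. The members stand above the genes of the array for every feature but the TATA motif, with 92.3% against 61.3% for the CpG ratio and 36.9% against 16.4% for the GABPA motif.

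A few of the head-to-head partners also serve mitochondria, while most, such as Tcp1, Klc4 and Hira, are genes of other kinds. Those described here were picked, and their share was not compared with other genes. Mrps12, whose protein lies at the decoding centre of the small subunit, starts 147 bases from Sars2, the mitochondrial seryl-tRNA synthetase. Mrpl43 starts 116 bases from Twnk, the mitochondrial DNA helicase, and Mrpl47 starts 308 bases from Ndufb5, a subunit of complex I. Mrpl32 starts 205 bases from Psma2, a proteasome subunit, and Mrpl49 starts 192 bases from Fau, which encodes a fusion of a ubiquitin-like protein with a ribosomal protein.

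The 6 arrays were alike in the rank of the members. The median member had a deposited signal of 130.45 to 208 on the 6 arrays, which lay between the 77.9th and the 81.5th percentile of its own array. Between 70 and 71 of the 74 members were at or above the median of each array. The arrays themselves had median signals of 25.2 to 40.8, and the ratio of the 3′ to the 5′ Gapdh control probe sets ranged from 6.43 to 14.1, with the highest value on the 6 h replicate 1 array. The hypothalamic neuron gene Oxt (oxytocin) had scaled log2 signals of 10.82 to 11.49, Avp (vasopressin) 9.55 to 10.15 and Sim1, a transcription factor of these neurons, 7.86 to 8.80 over the 6 arrays, whereas the fate factor Otp did not pass the filter.

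Signals below are on the log2 scale after quantile normalization and an added 16, so that 4 is the floor, and a difference is on that same scale, which understates the change of low genes. Only values of the same probe set are compared. Within the small subunit, Mrps18c, a bacterial-type protein, stood at 10.13 and 10.04 in the sham pools, 10.31 and 10.20 at 2 h, and 9.99 and 9.94 at 6 h. In the large subunit, Mrpl38, a mitochondria-specific protein, spread least over the 6 arrays of all 73 tested members, from 5.55 to 5.85. Mrpl45, whose protein helps to dock the ribosome on the inner membrane, was also narrow, with a range of 0.35 between its lowest and highest array.

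The widest member was Mrpl9, a large-subunit protein of bacterial type, at 6.54 and 5.04 in the sham pools, 5.95 and 6.17 at 2 h, and 7.18 and 6.02 at 6 h. A second tested probe set of Mrpl9 was narrower. It stood at 5.84 and 5.63 in the sham pools, 6.09 and 6.13 at 2 h, and 6.17 and 6.07 at 6 h. Mrpl10, which forms the base of the stalk that recruits translation factors, stood at 5.91 and 8.003 in the sham pools, 6.03 and 7.51 at 2 h, and 7.57 and 7.72 at 6 h. In the brightest probe set of both Mrpl9 and Mrpl10 the sham pools alone differed by more than 1 log2 unit, and the sham and 2 h values overlapped. Mrpl12, the stalk protein itself, stood at 7.13 and 6.69 in the sham pools, 7.79 and 6.63 at 2 h, and 7.73 and 6.79 at 6 h, with replicate 1 above replicate 2 in every group. Mrpl42, a mitochondria-specific large-subunit protein, did the opposite, at 8.56 and 9.83 in the sham pools, 8.66 and 9.48 at 2 h, and 7.996 and 9.33 at 6 h. Median ranges over the 6 arrays were 0.87 for the members and 0.99 for all 7318 tested genes.

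A difference between the arrays numbered replicate 1 and replicate 2 was seen in part of the members and in related genes. In 21 of 73 members (28.8%) replicate 1 was above replicate 2 in all 3 groups, and in 5 (6.85%) it was below in all 3. Among all tested genes these shares were 18.7% and 17.1%. In the small-subunit genes the median deviation from each gene's own mean was 0.12 and -0.17 in the sham pools, 0.21 and -0.098 at 2 h, and 0.010 and -0.050 at 6 h, for replicates 1 and 2. Replicate 1 was thus the higher in each group for these medians, by the most in the sham and 2 h groups. The cytosolic ribosomal protein genes showed the same order, at 0.044 and -0.21 in sham, 0.17 and -0.033 at 2 h, and 0.13 and -0.085 at 6 h. So did the oxidative phosphorylation subunits, at 0.082 and -0.040, 0.078 and -0.013, and -0.0027 and -0.053. The 48 large-subunit genes did not keep this order in sham, at -0.013 and 0.0069. Their medians were 0.087 and 0.044 at 2 h, and 0.050 and -0.12 at 6 h. Before normalization, the replicate 1 arrays had the lower median signal in each group. For replicates 1 and 2 it was 25.6 and 40.8 in sham, 25.2 and 32.6 at 2 h, and 28.2 and 35.6 at 6 h. The part of this in the differences between replicates was not tested.

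**Figure D2:**
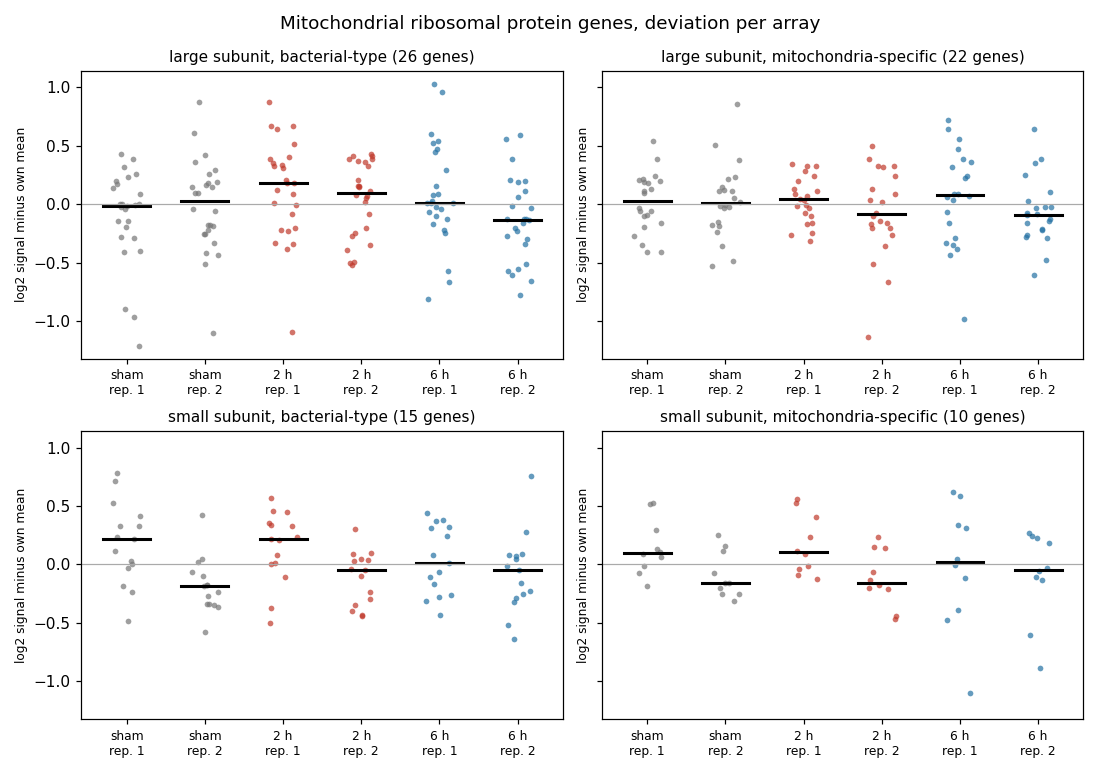
Scaled log2 signal of each tested member minus its own mean over the 6 arrays (vertical axis, log2 units), by array and class, with the class median as a black bar. In the small subunit the replicate 1 arrays sit above the replicate 2 arrays, and in no class do all 4 seizure medians lie on 1 side of both sham medians.

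The question for 2 h against sham is whether the members' RNA levels differed soon after the seizure. No member was called in the limma fit of all 12662 tested probe sets (Benjamini-Hochberg adjusted p under 0.05), the smallest adjusted p of a member being 0.9997. Of all tested probe sets 0% were called, and 4% had an unadjusted p under 0.05. Of the 73 members, 41 stood higher and 32 lower than sham, with a median difference of 0.033, against 51.4% of all tested genes higher and a median of 0.012. Without scaling between arrays only 29 members stood higher, and with median subtraction 46 did. The median absolute difference was 0.17 in the members and 0.25 in all genes. This gap was not seen in every comparison. At 6 h against sham the values were 0.24 and 0.25, and at 6 h against 2 h they were 0.27 and 0.25. At 2 h against sham 0 members differed by 2-fold or more, against 3.39% of genes.

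Mrpl17, a bacterial-type large-subunit protein, was the member with the smallest p at 2 h. Its scaled signals were 8.15 and 8.37 in the sham pools, 8.90 and 8.95 at 2 h, and 8.57 and 8.42 at 6 h. Both 2 h pools were above every other pool, and the 6 h pools lay between them and the sham pools. Against sham it was 1.58-fold higher (log2 difference 0.66 ± 0.29, SE) (limma adjusted p = 0.9997). It was the only member with an unadjusted p under 0.05, against 1.79% of all genes higher and 2.23% lower at that threshold. With the replicate number as a block in limma, its adjusted p was 0.709. Its promoter is the one printed above with an NRF1 core next to the start.

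After Mrpl17, the higher members with the smallest p were Mrpl41, Mrps21 and Mrpl32. Mrpl41, of the mitochondria-specific large-subunit class, was at 9.90 and 9.86 in the sham pools, 10.34 and 10.02 at 2 h, and 10.34 and 10.12 at 6 h. Its seizure pools at both times were above both sham pools, by 1.23-fold (log2 difference 0.30 ± 0.22, SE) at 2 h, with a log2 difference of 0.14 without the first 2 h pool. Mrps21, a bacterial-type small-subunit protein, was at 8.38 and 8.23 in the sham pools, 9.02 and 8.52 at 2 h, and 8.95 and 8.32 at 6 h. The 2 h pools were above the shams, by 1.38-fold (log2 difference 0.46 ± 0.33, SE), with 0.22 without the first 2 h pool, while 1 of the 6 h pools lay within the sham range. Mrpl32, a large-subunit protein that the m-AAA protease trims before it is assembled, was at 7.73 and 7.47 in the sham pools, 8.03 and 8.09 at 2 h, and 7.87 and 7.15 at 6 h. On average its 2 h pools were 1.38-fold higher (log2 difference 0.46 ± 0.36, SE), and its 6 h pools spread on both sides of the shams.

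Among the lower members with the smallest p, Mrps5, a bacterial-type protein of the small subunit, was at 7.56 and 6.81 in the sham pools, 6.40 and 6.67 at 2 h, and 6.46 and 6.72 at 6 h. All 4 seizure pools were below both sham pools, by 1.57-fold (log2 difference -0.65 ± 0.39, SE) at 2 h, where the log2 difference was -0.28 without the first sham pool. Mrpl40, a mitochondria-specific large-subunit protein, was at 7.98 and 7.56 in the sham pools, 7.42 and 6.93 at 2 h, and 7.43 and 8.23 at 6 h. Its 2 h pools were 1.51-fold lower (log2 difference -0.60 ± 0.39, SE), and the 6 h pools again spanned the sham values. Mrpl55, put in the same class by its number alone, was at 6.33 and 6.26 in the sham pools, 6.23 and 5.01 at 2 h, and 6.50 and 6.53 at 6 h. Its 2 h difference of -0.68 ± 0.46 (SE) rested on the second 2 h pool, and was -0.068 without it. Mrpl44, which has an RNase III fold, was at 9.58 and 9.02 in the sham pools, 9.24 and 8.53 at 2 h, and 8.97 and 8.89 at 6 h, 1.33-fold lower (log2 difference -0.42 ± 0.32, SE) at 2 h with groups that overlapped, and -0.063 without the second 2 h pool.

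In 10 members both 2 h pools were above both sham pools and in 8 both were below, which is 13.7% and 10.96% of the members, against 16.7% and 16.5% of all tested genes. The counts of members are below these background shares. Bacterial-type large-subunit genes stood higher in 18 of 26, with a median of 0.14, and mitochondria-specific large-subunit genes in 9 of 22, with a median of -0.041. In the small subunit 8 of 15 bacterial-type genes (median 0.054) and 6 of 10 mitochondria-specific genes (median 0.015) stood higher. The difference between these classes was not tested. Within replicate 1 41 members stood higher than sham and within replicate 2 38 did, but only 19 were higher in both and 13 lower in both, while 41 went opposite ways.

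At 6 h the members were again divided evenly. No member was called against sham (limma, smallest adjusted p 0.9998), as was true of 0% of all tested probe sets, of which 3.75% had an unadjusted p under 0.05. Of the 73 members, 36 stood higher and 37 lower, with a median of -0.00075, against 49.8% of all genes higher and a median of -0.0017. Without scaling, or with median subtraction, 46 members stood higher; median subtraction moved the median of all tested probe sets by 0.10 as well. Sham pools were taken at 2 h alone, so seizure and time after handling cannot be told apart in this comparison.

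Mrps18b, a mitochondria-specific small-subunit paralogue of Mrps18c, had the smallest p at 6 h. Its scaled signals were 8.11 and 7.84 in the sham pools, 8.15 and 7.41 at 2 h, and 6.48 and 7.53 at 6 h. Both 6 h pools were below both sham pools, by 1.96-fold (log2 difference -0.97 ± 0.43, SE) (limma adjusted p = 0.9998). The first 6 h pool set much of this, since the difference was -0.44 without it and -1.501 without the second. That first pool is the array with the highest Gapdh 3′ to 5′ ratio, and the part of RNA quality in the difference was not tested. Mrps18b was the only member with an unadjusted p under 0.05, against 1.74% of all genes higher and 2.05% lower. With the replicate block 3 of the 73 members had one, against 464 of the 7318 tested genes. They were Mrps18b, Mrps2 and Mrpl42, the last with -0.54 ± 0.51 (SE) in the fit without the block.

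Mrps2, a bacterial-type small-subunit protein, was at 7.47 and 7.56 in the sham pools, 7.70 and 6.74 at 2 h, and 6.86 and 6.50 at 6 h. Both 6 h pools were lower than the shams by 1.79-fold (log2 difference -0.84 ± 0.40, SE), but a second probe set of the gene stood 0.40 higher. Mrpl48, a mitochondria-specific large-subunit protein, was at 8.44 and 8.46 in the sham pools, 8.35 and 8.33 at 2 h, and 7.86 and 8.02 at 6 h. Its sham pools were nearly equal and both 6 h pools were below them, by 1.43-fold (log2 difference -0.51 ± 0.30, SE), with its second probe set at -0.087. Mrps36, also assigned to the oxoglutarate dehydrogenase complex, was at 7.91 and 7.55 in the sham pools, 7.49 and 7.18 at 2 h, and 7.44 and 6.79 at 6 h. All 4 seizure pools were below both shams, by 1.53-fold (log2 difference -0.62 ± 0.37, SE) at 6 h.

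On the higher side at 6 h, Mrps9, a bacterial-type small-subunit protein, was at 7.57 and 7.88 in the sham pools, 8.38 and 7.61 at 2 h, and 8.07 and 8.81 at 6 h. The 6 h pools were 1.63-fold higher (log2 difference 0.71 ± 0.39, SE), while its 4 probe sets gave 0.71, 0.52, -0.23 and -0.71, so the gene had no single direction. Mrps35, a mitochondria-specific small-subunit protein, was at 6.84 and 6.53 in the sham pools, 6.81 and 6.41 at 2 h, and 7.47 and 7.03 at 6 h, 1.48-fold higher (log2 difference 0.56 ± 0.37, SE) at 6 h. Mrps11, which starts next to Mrpl46 on the shared promoter printed above, was at 7.09 and 6.51 in the sham pools, 7.43 and 6.73 at 2 h, and 7.40 and 7.36 at 6 h, 1.5-fold higher (log2 difference 0.58 ± 0.39, SE) at 6 h with no overlap with sham. Its neighbour Mrpl46 was at 7.17 and 7.63 in the sham pools, 7.51 and 7.84 at 2 h, and 7.74 and 7.24 at 6 h, where the 6 h and sham pools overlapped. Mrpl41 again stood higher, by 1.28-fold (log2 difference 0.35 ± 0.22, SE).

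**Figure D3:**
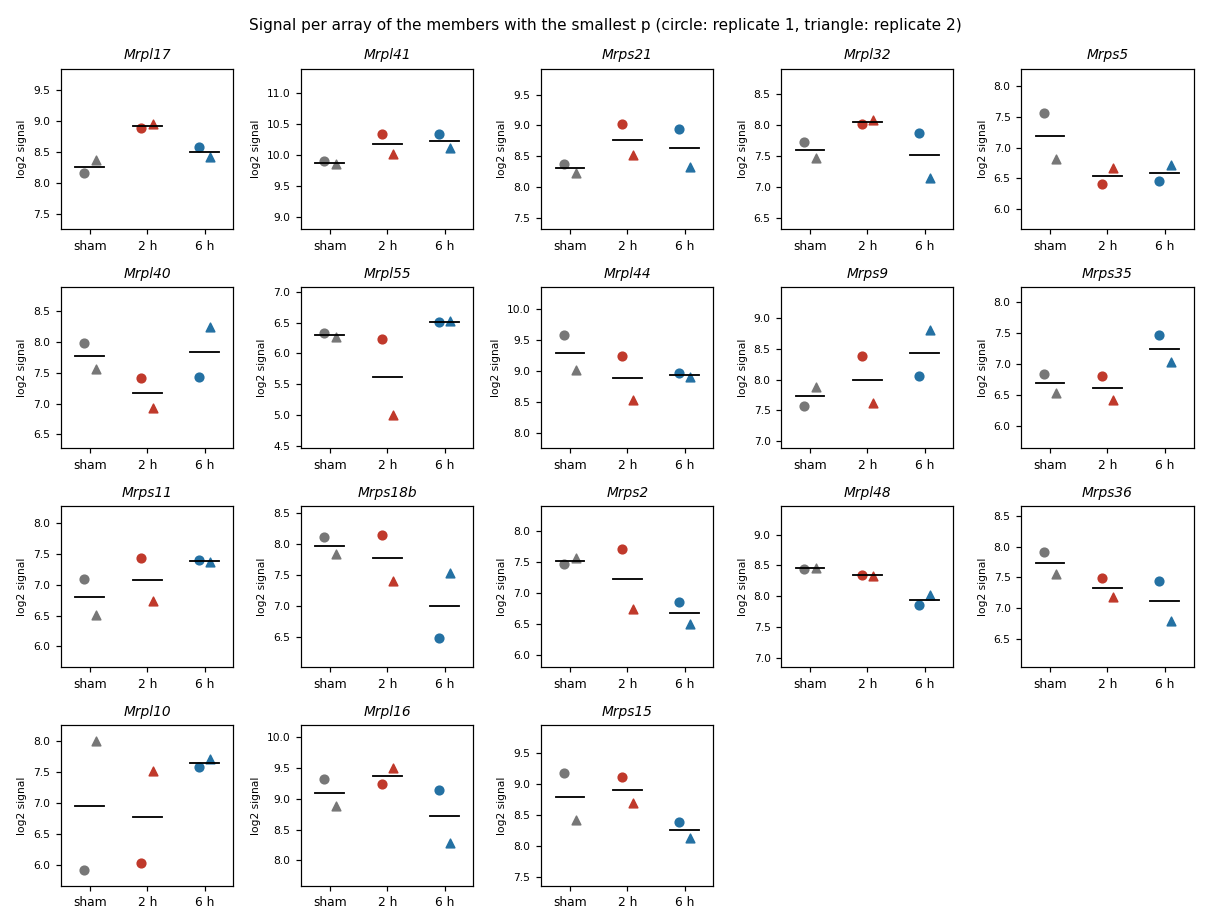
Scaled log2 signal (vertical axes, each panel spanning its own range of levels) of the 18 members named by the smallest p in any comparison, per pool (circles replicate 1, triangles replicate 2), with a bar at the mean of each group. Mrpl17 is highest at 2 h, Mrps5 and Mrps36 have all 4 seizure pools below both shams, and in Mrps18b and Mrpl55 1 pool stands apart from the rest of its group.

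Without overlap, 10 members stood higher at 6 h than sham (13.7%, against 15% of all genes) and 15 stood lower (20.5%, against 15.4%). The latter count was 8 without scaling and 10 with median subtraction, settings under which the share of all genes was not counted. The members standing lower included 6 of the 15 bacterial-type small-subunit genes: Mrps2, Mrps5, Mrps15, Mrps16, Mrps18c and Mrps28. Yet 8 of these 15 genes stood higher than sham at 6 h, with a class median of 0.055. The other classes were as evenly divided: 12 of 26 bacterial-type large-subunit genes, 11 of 22 mitochondria-specific large-subunit genes and 5 of 10 mitochondria-specific small-subunit genes stood higher. Within replicate 1 the members' median was 0.049 and within replicate 2 it was -0.063, with 20 members higher in both, 21 lower in both and 32 going opposite ways.

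The 2 comparisons above share the sham pools, whereas 6 h against 2 h used the seizure pools alone. No member was called there (limma, smallest adjusted p 0.9989), nor were any of all tested probe sets (0%, with 3.46% at an unadjusted p under 0.05). At 6 h 34 members stood higher than at 2 h and 39 lower, with a median of -0.033, against 49.2% of all genes higher and a median of -0.0071. Without scaling 44 members stood higher, and the median of all tested probe sets was then 0.16. No member had an unadjusted p under 0.05, against 1.67% of all genes higher and 1.8% lower. With the replicate block 2 of the 73 members did, Mrpl16 and Mrps15, against 425 of the 7318 tested genes.

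Mrpl16, a bacterial-type large-subunit protein close to the tRNA sites, was at 9.32 and 8.88 in the sham pools, 9.24 and 9.49 at 2 h, and 9.14 and 8.28 at 6 h. Both 6 h pools were below both 2 h pools, by 1.58-fold (log2 difference -0.66 ± 0.33, SE), and without the second 6 h pool the difference was -0.23. Mrps15, a bacterial-type small-subunit protein, was at 9.18 and 8.42 in the sham pools, 9.11 and 8.69 at 2 h, and 8.39 and 8.13 at 6 h. Its 6 h pools were the lowest of the 6, and stood 1.56-fold (log2 difference -0.64 ± 0.34, SE) below 2 h. Mrps18b (-0.77 ± 0.43, SE) and Mrpl32 (-0.55 ± 0.36, SE) were the other members lower at 6 h by the rule, the former with overlapping groups. The 4 named on the higher side were Mrpl55 (0.90 ± 0.46, SE), Mrps35 (0.64 ± 0.37, SE), Mrpl40 (0.66 ± 0.39, SE) and Mrpl10 (0.88 ± 0.65, SE). Leaving out 1 array moved these values: the difference nearest 0 was -0.25 in Mrps18b (without the first 6 h pool), -0.19 in Mrpl32 and 0.26 in Mrpl40 (without the second 6 h pool), 0.41 in Mrps35 (without the first 6 h pool), 0.28 in Mrpl55 (without the second 2 h pool) and 0.14 in Mrpl10 (without the first 2 h pool). Without overlap, 6 members stood higher (8.22%, against 14.3% of all genes) and 12 lower (16.4%, against 15.8%). Without scaling between arrays, 20 stood higher and 5 lower in this way. The share of all genes under that setting was not counted, and the median of all tested probe sets was then 0.16. Of those 12, 6 were bacterial-type large-subunit genes (Mrpl1, Mrpl16, Mrpl17, Mrpl20, Mrpl32 and Mrpl36).

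**Figure D4:**
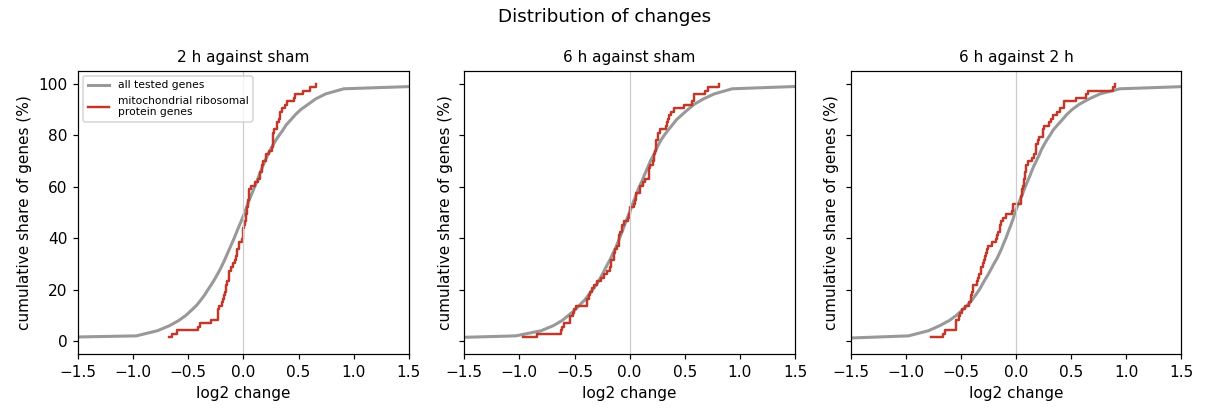
Cumulative share of genes (%, vertical axis) by log2 difference (horizontal axis, cut at -1.5 and 1.5) for the 73 tested members and for all 7318 tested genes, in each comparison. The member curves cross the zero line near the curve of all genes, and no member reaches a 2-fold difference.

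The precision of these differences was limited by 2 arrays a group. The SD between the pools of a group had a median of 0.22 in sham, 0.25 at 2 h and 0.29 at 6 h over the members, against 0.27, 0.26 and 0.29 over all genes. The 95% interval of a member's difference reached a median of 0.83 log2 units to either side, a factor of 1.78, and from 0.40 to 1.44 between members. These intervals hold for a single gene, without adjustment over the probe sets, so they are not the limit of what could be called. Mrpl17 at 2 h and Mrps18b at 6 h lay beyond their own intervals and were not called. A p that missed the threshold does not show equal levels. Of 27 members with several tested probe sets, all probe sets pointed the same way in 14 at 2 h against sham, 16 at 6 h against sham and 16 at 6 h against 2 h.

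Members with a GABPA, YY1 or NRF1 core motif were compared with the rest as a description. Of 36 tested members with a motif, 21 stood higher at 2 h (median 0.033) and 17 at 6 h (median -0.010). Of 28 without one, 12 stood higher at 2 h (median -0.036) and 13 at 6 h (median -0.028). At 6 h against 2 h, 13 of the 36 and 17 of the 28 stood higher, with medians of -0.16 and 0.052. The spread between single arrays of the median over all members was 0.091, and the difference between the motif groups was not tested.

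The factors that bind these motifs were measured on the same arrays. Yy1 stood at 8.06 and 8.63 in the sham pools, 9.45 and 9.13 at 2 h, and 8.27 and 8.44 at 6 h. Both 2 h pools were above all other pools, by 1.93-fold (log2 difference 0.95 ± 0.31, SE) against sham (limma adjusted p = 0.9997). Its other tested probe sets gave 0.36 and 0.42, and a dim one below the filter gave -0.33. At 6 h against 2 h Yy1 was 1.91-fold lower (log2 difference -0.93 ± 0.31, SE), where its other tested probe sets gave -0.81 and -0.013 and the dim one 0.77. Nrf1 stood at 6.47 and 5.91 in the sham pools, 5.82 and 5.55 at 2 h, and 6.77 and 5.97 at 6 h, with both 2 h pools below both shams (-0.51 ± 0.44, SE), and Gabpa differed by 0.25 ± 0.39 (SE) at 2 h. Gabpa's second tested probe set gave -0.55, with both 2 h pools below both shams, so its probe sets disagreed. Over the list of 9 regulators of mitochondrial genes, 7 were tested, of which 6 stood higher at 2 h (median 0.25) and 5 at 6 h (median 0.058, or 0.011 over all 9). Myc had the smallest p of the list at 6 h against sham, with -0.70 ± 0.47 (SE).

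Mitoribosomal proteins named outside the Mrpl and Mrps series were Chchd1, Dap3, Gadd45gip1 and Ptcd3. Of these 4, 2 stood higher at 2 h and 1 at 6 h. Chchd1, a small-subunit protein, was named in both, with 0.24 ± 0.29 (SE) at 2 h and 0.31 ± 0.29 (SE) at 6 h. Gadd45gip1, a large-subunit protein, was -0.26 ± 0.38 (SE) at 6 h against 2 h, but 0.22 as the mean over its probe sets.

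Genes for mitoribosome assembly gave no call in any comparison. Of 15 tested of 17 on the array, 8 stood higher at 2 h (median 0.040), 9 at 6 h (median 0.27) and 11 at 6 h against 2 h (median 0.28). Over all 17 genes the 6 h median was 0.14. Mterf4, which guides the RNA methyltransferase Nsun4 to the ribosome, was at 7.15 and 7.04 in the sham pools, 6.23 and 6.54 at 2 h, and 6.73 and 6.57 at 6 h. All 4 seizure pools were below both shams, by 1.63-fold (log2 difference -0.71 ± 0.36, SE) at 2 h. Nsun4 itself stood at 5.26 and 5.31 in the sham pools, 6.01 and 5.34 at 2 h, and 6.31 and 5.99 at 6 h, 0.87 ± 0.44 (SE) at 6 h against sham, while its second tested probe set gave 0.080. Noa1, a GTPase needed for assembly, stood at 6.02 and 6.30 in the sham pools, 5.64 and 5.78 at 2 h, and 7.42 and 5.99 at 6 h. It was 1.00 ± 0.49 (SE) at 6 h against 2 h, and 0.28 without the first 6 h pool. The 6 h median is set beside a median of -0.0017 over all genes, and the list was not tested against them.

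Translation factors of the mitochondria numbered 12, all tested, of which 7 stood higher at 2 h (median 0.029) and 4 at 6 h (median -0.12). Lrpprc, which stabilises mitochondrial messenger RNAs, was -0.65 ± 0.46 (SE) at 2 h, and -0.25 without the second sham pool. Gfm2, which recycles the ribosome, was -0.64 ± 0.49 (SE) at 6 h and -0.97 ± 0.49 (SE) at 6 h against 2 h. Without the first 6 h pool these were -0.11 and -0.44, and a Gfm2 probe set below the filter gave 0.62 and 0.55. Of 8 tested tRNA synthetase and amidotransferase genes of 11 on the array, 3 stood higher at 2 h (median -0.050) and 6 at 6 h (median 0.14). Gatc, of the amidotransferase that makes glutaminyl-tRNA, was -0.68 ± 0.40 (SE) at 2 h and 0.76 ± 0.40 (SE) at 6 h against 2 h, and Tars2, the threonyl-tRNA synthetase, was 0.99 ± 0.51 (SE) at 6 h, and 0.32 without the second sham pool.

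Genes for mitochondrial DNA and RNA upkeep were 13, 11 of them tested, with 7 higher at 2 h (median 0.090, or 0.0061 over all 13) and 7 at 6 h (median 0.040). Tfb2m, a transcription factor of the mitochondrial genome, was at 7.27 and 5.81 in the sham pools, 5.41 and 5.44 at 2 h, and 6.92 and 5.67 at 6 h. The first sham pool stood far above the second, and the 2 h difference of -1.11 ± 0.56 (SE) was -0.39 without it. Polg, the mitochondrial DNA polymerase, was -0.40 ± 0.41 (SE) at 6 h and -0.69 ± 0.41 (SE) at 6 h against 2 h.

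The subunits of the oxidative phosphorylation complexes, some of which mitoribosomes make, are represented on the array by 79 nuclear genes, 74 of them tested. At 2 h 40 stood higher and 34 lower than sham, with a median of 0.021, and at 6 h 34 stood higher and 40 lower, with a median of -0.016. Ndufa2, a complex I subunit, had the smallest p against sham at both times, with 0.40 ± 0.17 (SE) at 2 h and 0.48 ± 0.17 (SE) at 6 h. Cytosolic ribosomal protein genes were higher than sham in 36 of 42 at 2 h (median 0.14) and in 30 of 42 at 6 h (median 0.076). They were higher without overlap in 11 (26.2%) at 2 h and 8 (19.0%) at 6 h, against 10 (13.7%) of the 73 mitochondrial ones at each time and 16.7% and 15% of all genes, and no gene of either list was called. Rps25 had the smallest p at 2 h, with 1.44 ± 0.47 (SE), and Rps10 at 6 h, with 0.24 ± 0.15 (SE). At 6 h against 2 h, Rps25 was -1.41 ± 0.47 (SE), and the complex I gene Ndufb2 was -0.58 ± 0.31 (SE). The difference between the cytosolic and the mitochondrial lists was not tested.

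Markers of the cell types that the dissected tissue could hold stood at different levels between the groups, none with a call in the fit without the replicate block. All 9 general neuron markers (such as Snap25, Syt1 and Nefl) stood lower at 2 h than sham, with a median of -0.46, and 8 of 9 at 6 h, with a median of -0.24. Their summed scaled signal was 16204 to 17113 in the sham pools, 12223 to 12821 at 2 h and 13698 to 15775 at 6 h. The forebrain neuron marker Camk2a was the only one of its list of 4 to pass the filter. It was -2.74 ± 0.53 (SE) at 2 h against sham (limma adjusted p = 0.513), and the replicate block called it (limma adjusted p = 0.0434). Over the whole list the sum was 502 to 633 in sham, 47 to 117 at 2 h and 188 to 483 at 6 h. The 6 markers of paraventricular neurons summed to 3818 to 3846 in sham, 4593 to 4871 at 2 h and 4613 to 5218 at 6 h. Bright markers weigh most in such a sum. Of the 5 tested, 4 stood higher and 1 lower than sham at each time, the lower value being -0.12 at 2 h and -0.44 at 6 h. The 7 oligodendrocyte markers summed to 2636 to 3130, 2118 to 2306 and 1874 to 2016 in the same order. Endothelial and mural markers stood higher in 5 of 5 tested at 2 h (sums of 840 to 1214 in sham and 1097 to 1285 at 2 h), and microglial sums overlapped between sham and both times. Astrocyte sums were 2973 to 3242 in sham, 3006 to 3152 at 2 h and 2865 to 2953 at 6 h. The 3 ependyma and choroid plexus markers did not pass the filter and summed to 12 to 14 in sham, 29 to 43 at 2 h and 26 to 37 at 6 h. The part of this cell make-up in the members' values was not tested.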

How the data were processed

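Per the labels' protocols, total RNA from laser-microdissected tissue was amplified, labelled (5 µg of cDNA) and hybridised to Affymetrix arrays, with each array holding 1 pool of animals. The deposited values are MAS5 signal intensities on a linear scale, per the submitters' processing notes; its version and settings are not stated there. The array medians of the deposited intensities differed, and whether the authors scaled the arrays to a target is not stated. The replicate number was read as the run of the experiment, which the labels do not say outright. Deviations of same-numbered arrays correlated by 0.23, 0.19 and 0.15 over the 3 pairs of groups (0.33, 0.21 and 0.11 in the members). These correlations are weak, and what same-numbered arrays share was not tested. The block is given where it changed a count.

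The 64 control probe sets were left out. Signals were quantile normalized, 16 was added, and log2 was taken. A probe set was tested if it reached the median of its own array on at least 2 of 6 arrays, which left 12662 of 22626 (56.0%). Probe sets were named through GEO's platform annotation: 20380 had 1 gene symbol, 691 several and 1555 none, and 3 probe sets that pair an Mrpl or Mrps symbol with another gene were left out (1 of them with a member's symbol, Mrps34). All 74 members matched RefSeq by identifier. limma 3.58.1 (R 4.3.3) fitted the 3 group means over all 6 arrays with a trended prior, and p-values were adjusted by Benjamini-Hochberg over all tested probe sets at 0.05. The p-values measure the spread between pools. Per comparison, the 4 higher and 4 lower members with the smallest p were named, and 1 gene per pathway list. Other members, and genes in the closing section, were named after their values were seen. The fit was also run on simulated data, and the outcome is not given here. The members and lists were chosen with earlier results of these data known. Classes follow the number in the symbol with set exceptions, and the counts and medians by class rest on that rule. In all, 17 alternative settings were tried, among them offsets, scaling, filters, array weights, the replicate block and leaving out each array. Motifs were searched on both strands, and overlapping NRF1 cores were counted as matches of their own.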

Additional observations from a re-analysis of the deposited data

Results flagged for a closer look

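2 members stood on opposite sides of sham at the 2 times, with every pool of a group on the same side. How many of all tested genes did the same was not counted, so the 2 are given as a description only. Mrpl55, a large-subunit protein, had both 2 h pools below and both 6 h pools above both sham pools, and its 6 h difference from sham exceeded its 2 h difference by 0.895 on the log2 scale. Its 2 h pools were at 6.23 and 5.01, so that most of the 2 h difference came from the second pool. Mrps18c, a small-subunit protein among the brightest members, went the other way, with its 2 h pools above and its 6 h pools below both shams and a difference between the times of -0.286. The difference between the times is the 6 h against 2 h comparison of the limma fit, in which both genes had an adjusted p of 0.9989. Outlying samples could not be assessed in groups of 2 arrays.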

How the results depend on the processing

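No member was called under any of the 17 alternative settings (smallest adjusted p of a member 0.321, for Mrps18b at 6 h without 6 h replicate 2). Of 796 values of named genes under alternatives, 795 kept their direction and their side of the threshold. The exception was Gadd45gip1 at 6 h against 2 h, 0.219 as the mean over its probe sets against -0.263. The named genes were picked for a small p on these same arrays, and none was called in the main fit. Keeping direction and side was therefore favoured in advance, and the count is no measure of robustness. Over all tested probe sets, calls at 2 h against sham went from 0 to 1 without scaling, 1 with median subtraction, 2 with array weights and 12 when the fit held just the sham and 2 h arrays. Leaving out 1 array leaves its group with a lone array, which is assumed to vary like the other groups. It gave 0 to 10 calls there (10 without either 6 h array), 0 to 6 at 6 h against sham and 0 to 3 at 6 h against 2 h, the highest of the latter 2 without 6 h replicate 2. The replicate block gave 4 calls over all probe sets at 2 h and 0 at 6 h against either group. With the block 1, 3 and 2 members had an unadjusted p under 0.05 in the 3 comparisons, against 1, 1 and 0 without it. Of the 7318 tested genes, 472, 464 and 425 had one with the block. The block changed no other call. The median of the members was -0.0766 at 2 h without scaling (all probe sets -0.0795), 0.114 at 6 h with median subtraction (all probe sets 0.101), and 0.0860 at 6 h against 2 h without scaling (all probe sets 0.160). Leaving out 1 array moved it from -0.0470 to 0.108 at 2 h, from -0.0772 to 0.0540 at 6 h and from -0.0647 to 0.0634 at 6 h against 2 h. It moved 18 of 24 values of named members and 15 of 24 of pathway genes by over 1.5 times. The number of arrays limits the precision, and the cause of these shifts was not tested.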
